A study of Mus musculus with 6 samples.

Results

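The Lsd1 peaks of wild-type C2C12 cells were compared between myogenic and adipogenic medium across the whole genome. Members were all peaks of both wild-type peak lists, 43426 from myogenic and 18893 from adipogenic medium, which makes 62319 of the 95852 peaks deposited for the series. A peak was called shared when it overlapped a peak of the other list by at least 1 bp, and private otherwise. The other 33533 peaks come from LSD1(OE) cells, which overexpress LSD1 in adipogenic medium, and are given here only as side information.

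C2C12 is a mouse myoblast line, and both conditions used wild-type cells at day 1 after the change of medium. Myogenic medium was DMEM with 2% horse serum, in which C2C12 myoblasts leave the cell cycle and fuse. Adipogenic medium was DMEM with 10% FCS to which dexamethasone (5 µM), rosiglitazone (1 µM), insulin (850 nM), T3 (1 nM), isobutylmethylxanthine (0.5 mM) and indomethacin (125 nM) were added. Serum and inducers thus differed together and cannot be told apart. Chromatin, fixed for 6 min in 1% PFA, was precipitated with an antibody raised against the C-terminus of Lsd1. Each condition had 1 Lsd1 ChIP library and 1 input library, so no value has a replicate, and each difference is one between single libraries of one cell line. After MACS had limited duplicates, the ChIP libraries held 46155625 tags in myogenic and 63915769 tags in adipogenic medium, and peaks took up 7.12% and 3.2% of them. Intervals given here are 95% intervals and cover counting error only.

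Lsd1, encoded by Kdm1a, removes methyl groups from histone H3 lysine 4 and works with the corepressor CoREST, histone deacetylases and DNA-binding repressors of the Snail and Gfi families. At enhancers and promoters it is known both for silencing genes and for keeping active genes within bounds. In muscle and fat precursors it takes part in the choice between myogenic, white and brown adipogenic fates.

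The sequences at the summits, where tags pile up most, are shown for the strongest peaks of some classes, as single examples. The strongest distal peak paired between the media lay between genes at -18899 bp from the TSS of Eapp (mm10, plus strand, chr12:54714406-54714526). The strongest distal private adipogenic peak lay in an intron of Cpt1a (chr19:3333550-3333670). The strongest adipogenic private promoter peak lay in an exon of 4933411K16Rik (chr19:42053043-42053163). Capitals mark matches to the motifs searched, here the TEAD motif GGAATG on either strand, and Eapp and Cpt1a hold none of them within the bases shown.
Eapp distal, paired: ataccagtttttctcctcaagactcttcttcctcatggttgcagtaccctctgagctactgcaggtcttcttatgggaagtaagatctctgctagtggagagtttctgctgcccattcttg
Cpt1a distal, adipogenic private: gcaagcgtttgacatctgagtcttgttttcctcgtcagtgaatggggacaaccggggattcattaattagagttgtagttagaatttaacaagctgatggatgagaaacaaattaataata
4933411K16Rik promoter, adipogenic private: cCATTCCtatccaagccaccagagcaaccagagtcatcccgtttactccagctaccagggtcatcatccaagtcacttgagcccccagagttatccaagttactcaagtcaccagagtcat

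Summits of promoter peaks are shown as examples for genes described further on that hold a searched motif, namely genes bound in both media, Tpm2 (chr4:43523692-43523812) and Cebpd (chr16:15887140-15887260), and for genes bound in the myogenic library alone, Tnnc2 (chr2:164780104-164780224), Gpd1 (chr15:99717717-99717837) and Rcor1 (chr12:111038558-111038678), all on the plus strand of mm10. Capitals mark the MyoD E-box CAGCTG in Tpm2, Cebpd and Gpd1, the GC box GGGCGG in Cebpd and Tnnc2, the TEAD motif in Tnnc2, the CCAAT box in Rcor1 and the full glucocorticoid receptor motif in Gpd1. These examples were picked for holding a motif, and a match describes the sequence and is not evidence of binding by that factor. Over all promoter peaks CAGCTG was present in 14.4% of shared and 14.1% of private myogenic peaks, beside 12.9% of windows at all TSSs.
Tpm2 promoter, both media: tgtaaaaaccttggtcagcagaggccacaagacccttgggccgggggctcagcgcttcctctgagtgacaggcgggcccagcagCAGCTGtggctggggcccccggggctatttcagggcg
Cebpd promoter, both media: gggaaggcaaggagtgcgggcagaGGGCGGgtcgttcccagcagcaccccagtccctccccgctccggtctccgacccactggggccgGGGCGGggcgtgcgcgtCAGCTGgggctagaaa
Tnnc2 promoter, myogenic: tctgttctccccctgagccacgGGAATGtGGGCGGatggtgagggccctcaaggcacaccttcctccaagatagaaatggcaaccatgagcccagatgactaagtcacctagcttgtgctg
Gpd1 promoter, myogenic: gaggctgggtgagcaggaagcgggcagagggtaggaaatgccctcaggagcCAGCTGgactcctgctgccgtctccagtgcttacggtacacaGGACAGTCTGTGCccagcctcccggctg
Rcor1 promoter, myogenic: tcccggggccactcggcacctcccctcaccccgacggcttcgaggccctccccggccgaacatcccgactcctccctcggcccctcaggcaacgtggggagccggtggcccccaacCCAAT

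Called peaks covered more of the genome in the myogenic library, 49.0 Mb against 25.3 Mb, and most adipogenic peaks overlapped a myogenic one. Peaks held 7.12% of the myogenic and 3.2% of the adipogenic tags. With 1 library each, this difference in enrichment cannot be told apart from the medium. Of the myogenic peaks, 15379 (35.4%) were shared and 28047 were private. Of the adipogenic peaks, 15201 (80.5%) were shared and 3692 were private. The lists had 18.1 Mb in common, which was 37.0% of the length covered by myogenic peaks and 71.7% of the length covered by adipogenic peaks. Of the private adipogenic peaks 52.9% lay within 5000 bp of a myogenic peak, and of the private myogenic peaks 28.6% lay within 5000 bp of an adipogenic peak, but the myogenic list is the longer one, so these shares cannot be set against each other. With the 18893 highest-scoring peaks of each list, 62.0% of the myogenic and 64.3% of the adipogenic peaks were shared, which left 7176 and 6747 private.

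Sharing rose steeply with the strength of a peak. MACS gives each peak a score of 10 times −log10 of its p-value. In the lowest of 10 equal classes of myogenic score, 9.05% of peaks overlapped an adipogenic peak, and in the highest class 92.5% did, leaving 326 strong private peaks. In the adipogenic list the share rose from 56.0% to 99.8%, and 3 private peaks were left in its highest class. In the lowest class of myogenic score 13.3% of promoter and 8.47% of distal peaks were shared, and in the highest class 92.1% and 93.1%. In the lowest class of adipogenic score the shares were 84.2% and 46.7%, and in the highest class 100% and 99.7%. Promoter peaks of the adipogenic list had the higher share in all 10 classes.

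**Figure D1:**
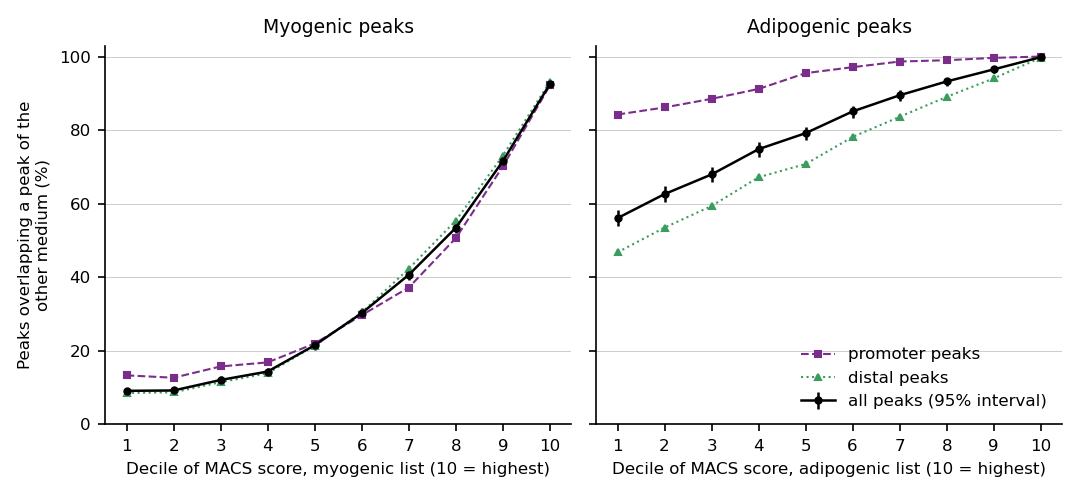
Share of peaks (percent) that overlap a peak of the other medium, by decile of the MACS score, for the myogenic list (left) and the adipogenic list (right). Black points with 95% Wilson intervals are all peaks, squares are promoter peaks and triangles are distal peaks; the share rises from 9.05% to 92.5% on the left and from 56.0% to 99.8% on the right, where promoter peaks lie above distal peaks.

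Position relative to genes set the private peaks of the media apart. A promoter peak was one whose centre lay within 2000 bp of a curated RefSeq transcription start site (TSS), and all others were called distal. Promoter peaks made up 41.3% of the shared myogenic peaks (interval 40.5 to 42.1%) and 21.9% of the private ones (21.4 to 22.4%). Among adipogenic peaks they made up 41.9% of the shared peaks (41.2 to 42.7%) but 9.05% of the private ones (8.16 to 10.0%), or 334 of 3692. Private adipogenic binding was thus mostly distal. The median distance to a TSS was 5840 bp for shared and 15222 bp for private myogenic peaks, and 5433 bp and 22686 bp for adipogenic peaks. With equal numbers of peaks, promoter peaks made up 40.8% of the private myogenic and 13.4% of the private adipogenic peaks.

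Shared peaks were longer and denser than private peaks in each medium. Density is the number of ChIP tags per kb of peak and per 1000000 filtered ChIP tags of the same library. In myogenic medium the median length was 1352 bp for shared and 787 bp for private peaks, and the median density was 1.49 and 1.13. In adipogenic medium the median length was 1201 bp and 954 bp, and the median density 1.18 and 1.05. Among the 894 myogenic peaks of 3 kb or longer, 39 were private, and among the 538 such adipogenic peaks 2 were private. An LSD1(OE) peak overlapped 27.3% of private and 81.4% of shared myogenic peaks, and 43.2% of private and 82.1% of shared adipogenic peaks.

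**Figure D2:**
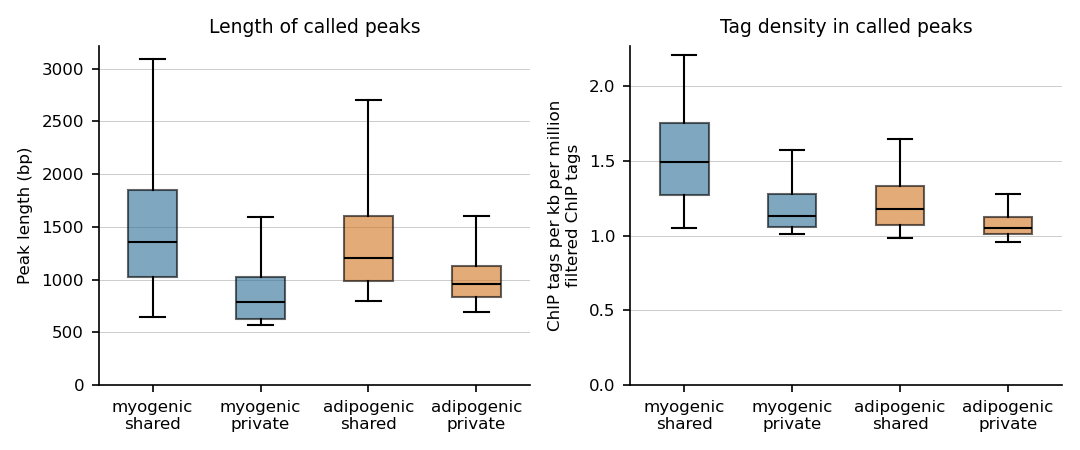
Length in bp (left) and tag density per kb and per 1000000 filtered ChIP tags (right) of shared and private peaks in each medium. Boxes span the quartiles with the median as a line, and whiskers run from the 5th to the 95th percentile of peaks; the median density is 1.49 in shared myogenic peaks and between 1.05 and 1.18 in the other classes.

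Where both libraries had called a peak, tag density was lower in adipogenic medium, and more so at promoters. Peaks were paired when each was the other's largest overlap, which gave 14552 pairs, 6106 at promoters and 8446 distal. The median log2 ratio of density, adipogenic over myogenic, was -0.33, and the ratio was below 0 in 88.2% of pairs. It was -0.44 at promoters (quartiles -0.62 and -0.27) and -0.24 at distal pairs (-0.41 and -0.07). The gap between promoters and distal pairs was also present among pairs whose lengths were within 20% of each other, with medians of -0.42 and -0.25, and among the highest of the 10 classes of myogenic score, with -0.55 and -0.42. The density was lower by at least 1 on the log2 scale in 77 promoter and 24 distal pairs, and higher by as much in 0 pairs. The median ratio fell from 0.07 in the lowest class of myogenic score to -0.50 in the highest, and in the low classes a pair needed an adipogenic peak above the threshold to be counted at all.

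**Figure D3:**
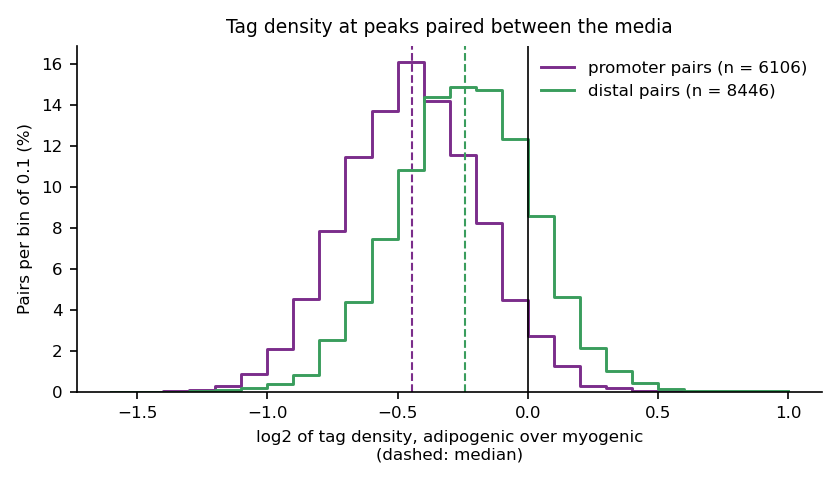
Distribution of the log2 ratio of tag density, adipogenic over myogenic, at 6106 promoter pairs and 8446 distal pairs, as percent of pairs per bin of 0.1. Dashed lines are the medians, -0.44 for promoter and -0.24 for distal pairs, and the solid line marks equal density.

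Among 2523 promoter pairs with at least 100 tags in each library, none of the 5 highest ratios stood clear of equal density, while the lowest did. Equal density was not the typical value, since the median over these pairs was -0.45 and 98.1% of them lay below 0. The intervals of the 5 highest lay above that median and those of the 5 lowest below it, both being picked as extremes. Phf21a, which encodes a subunit of the Lsd1-CoREST complex, was among the 5 highest, with 232 tags (density 2.54) in myogenic and 322 tags (2.91) in adipogenic medium. Its log2 ratio was 0.20 (interval -0.05 to 0.45), which included equal density. Dmpk, the myotonic dystrophy kinase gene, had 162 tags (1.74) and 212 tags (1.97), a ratio of 0.18 (-0.12 to 0.49). Gm14321, Gm17762 and LOC115489488 completed the 5 highest, with ratios of 0.20 to 0.28 and intervals that all reached below 0. The lowest ratio was at Pabpc1, which encodes the poly(A)-binding protein of translated mRNAs, with 223 tags (3.10) against 129 tags (1.33) and a log2 ratio of -1.23 (-1.55 to -0.91). Rnu3a, a U3 small nucleolar RNA gene, followed at -1.22, D230017M19Rik at -1.15, Rdm1 at -1.12 and Pa2g4, which encodes a regulator of growth and ribosome assembly, at -1.11. The upper ends of these 5 intervals lay between -0.92 and -0.79.

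The promoter and distal paired peaks with the highest myogenic scores had lower density in adipogenic medium too. They were picked by myogenic score, a choice that itself favours a lower adipogenic density. At H2bc4, a histone H2B gene, the paired promoter peak had 531 tags (density 2.37) in myogenic and 378 tags (1.91) in adipogenic medium, a log2 ratio of -0.31 (-0.51 to -0.12). That interval included the median of -0.44 over promoter pairs, and the peaks were 4855 and 3099 bp long. Histone genes have near-identical copies, so tags there could be split between them. At the distal Eapp peak shown above, 341 tags (3.91) stood against 199 tags (2.00), a ratio of -0.97 (-1.22 to -0.71).

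The threshold of peak calling limits what a private peak shows. From each peak's tags, length and score the local background was solved, and the score was computed that the same density would give in the other library. These scores and the bounds given here and below assume that relative background and peak length carry over between libraries, which was not tested. At an unchanged density, 24710 of the 28047 private myogenic peaks (88.1%) would have passed the score of 50 in the adipogenic library. With the density lowered by the median ratio of the pairs, 10221 (36.4%) would have passed, 59.0% of the promoter and 30.1% of the distal ones. Of the others, 3337 would not have passed even at an unchanged density. The rest would have passed at an unchanged density but not at the lowered one. Put as a bound, the density of a private myogenic peak had to be lower in adipogenic medium by a median of at least 0.19 on the log2 scale, and by at least 1 in 561 peaks (2.00%), 377 of them at promoters. All 3692 private adipogenic peaks would have passed in the myogenic library at their own density, but the calculation fixed this outcome in advance. ChIP depth cancels in it, because scaled tags and background both follow the input, which was larger in myogenic medium (87508211 against 81567427 filtered tags). The 88.1% above likewise followed from the input sizes and the peaks' own scores. The median bound of the private adipogenic peaks was 0.18, 256 (6.93%) had a bound of at least 0.5, and 0 had one of at least 1.

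Among the strongest private promoter peaks of myogenic medium were those of Heca, Bag1, Brd2 and Anp32b. Heca had 198 tags (density 2.59, interval 2.24 to 2.98) and a score of 1300.1, 184 bp from the TSS. Bag1, which encodes a cochaperone of Hsp70, had 200 tags (2.33), Brd2, which encodes a bromodomain reader of acetylated histones, 278 tags (1.93), and Anp32b, which encodes a histone chaperone, 318 tags (1.83). The nearest adipogenic peak lay 1076 bp away at Brd2 and between 15888 and 38063 bp away at the other 3 genes. At these 4 promoters an unchanged density would have scored between 1097 and 1299 in the adipogenic library, and the density there had to be at least 2.54-fold lower at Anp32b and at least 3.16-fold lower at Heca to miss the threshold. All of them except Anp32b overlapped an LSD1(OE) peak, from cells that were also in adipogenic medium. Among the strongest distal private myogenic peaks were those nearest to Ttll1 (380 tags, density 1.71) and Ssc4d (187 tags, 2.16).

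The strongest private adipogenic peaks were weaker and mostly distal. The highest score belonged to an intronic peak whose centre lay 10472 bp downstream of the TSS of Cpt1a, which encodes the rate-limiting enzyme of mitochondrial fatty acid import and is a target of PPARs. That peak had 203 tags (density 1.47, interval 1.27 to 1.68) and a score of 439, and the nearest myogenic peak lay 6276 bp away. Its density had to be at least 1.90-fold lower in myogenic medium to go uncalled. The next distal peaks lay nearest to Vipr2, a receptor for vasoactive intestinal peptide that signals through cAMP (166 tags, 1.48), and to Cradd, an adaptor of apoptosis signalling (229 tags, 1.23). The Cradd peak ended 320 bp from a myogenic peak. The 5 strongest private promoter peaks, at 4933411K16Rik, Apon, AU019990, Gm1995 and Galnt9, had scores of 217 to 302, and each overlapped an LSD1(OE) peak.

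Genes were then compared by their promoters. Of 26180 annotated genes, 5623 (21.5%) had a promoter peak in both media, 4976 (19.0%) in the myogenic library only and 463 (1.77%) in the adipogenic library only. With equal numbers of peaks, the counts were 5144 (19.6%), 2884 (11.0%) and 942 (3.60%). Each promoter peak went to the gene of the closest TSS, so a shift of the peak centre could move it to a neighbour. Counting instead every gene with any part of a peak within 2000 bp of a TSS, 7064 genes (27.0%) had peaks in both media, 5475 (20.9%) in myogenic medium only and 236 (0.901%) in adipogenic medium only. By this count 56.3% of genes bound in myogenic medium were also bound in adipogenic medium. It is used for the gene lists below unless another count is named. The lists were chosen with earlier results of these data known, and their shares are descriptions beside those over all genes. Single log2 ratios below are set against equal density, while the median over all promoter pairs was -0.44, so ratios near that value were typical. Densities were taken over each peak's own length, and lengths were within 20% of each other in 5621 of 14552 pairs. The part of unlike lengths in single ratios was not tested.

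**Figure D4:**
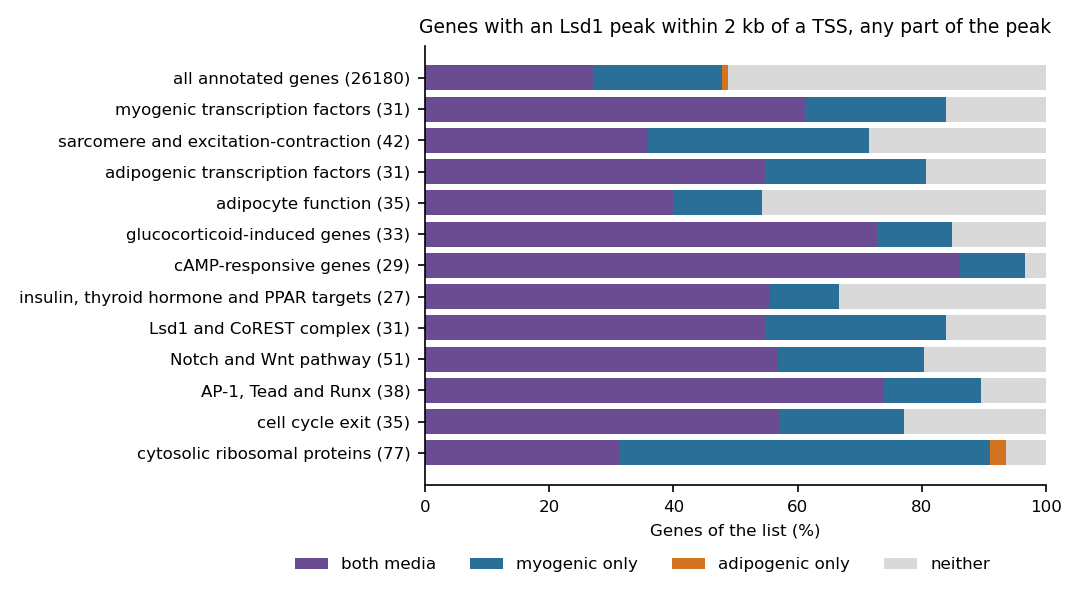
Percent of the genes of each list (number of genes in brackets) with any part of an Lsd1 peak within 2 kb of a TSS in both media, in myogenic medium only, in adipogenic medium only or in neither. The top bar gives all 26180 annotated genes; 34.3% of the ribosomal protein genes bound in myogenic medium were also bound in adipogenic medium, against 89.3% of the cAMP-responsive genes.

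Of 31 myogenic transcription factor genes, 19 were bound in both media, 7 in myogenic medium only and 0 in adipogenic medium only. Of those bound in myogenic medium 73.1% (interval 53.9 to 86.3%) were also bound in adipogenic medium, an interval that included the 56.3% over all genes. Mef2d, a partner of MyoD in activating muscle genes, had paired peaks of 436 tags (density 1.77) and 148 tags (1.44), a log2 ratio of -0.30 (interval -0.58 to -0.03). Tcf3, the E protein that pairs with MyoD, had 323 tags (1.86) and 106 tags (1.19), a ratio of -0.64 (-0.97 to -0.32). Id3, an inhibitor of E proteins, counted as myogenic only by nearest TSS, but an adipogenic peak overlapped it, with 205 tags (1.28) against 237 tags (2.19) and a ratio of -0.77 (-1.05 to -0.50).

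Of 42 genes of the sarcomere and of excitation-contraction coupling, 15 were bound in both media, 15 in myogenic medium only and 0 in adipogenic medium only. The share also bound in adipogenic medium was 50% (33.2 to 66.8%), which was near the 56.3% over all genes, as 0 adipogenic-only genes was near 0.901%. Tpm2, a tropomyosin gene, had paired peaks of 327 tags (1.98) and 140 tags (1.60), a log2 ratio of -0.31 (-0.60 to -0.02). Actn3, which encodes the alpha-actinin of fast fibres, had 298 tags (1.85) and 260 tags (1.62). Its ratio of -0.19 (-0.44 to 0.05) was within counting error of equal density. Tnnc2, fast troponin C, had 161 tags (1.75) and a score of 528 in myogenic medium, and Des, the muscle intermediate filament desmin, had 85 tags (1.62) and a score of 321. At the lowered density these peaks would have scored 262 and 168, and the nearest part of an adipogenic peak lay 5519 bp and 9647 bp away.

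Of 31 adipogenic transcription factor genes, 17 were bound in both media and 8 in myogenic medium only, and of 35 genes of adipocyte function 14 and 5. In both lists 0 genes were bound in adipogenic medium only, and 1 gene in each with equal numbers of peaks and assignment by nearest TSS. Of the genes bound in myogenic medium 68.0% (48.4 to 82.8%) and 73.7% (51.2 to 88.2%) were also bound in adipogenic medium, intervals that included the 56.3% over all genes. Klf5, an early activator of adipogenesis, had paired peaks of 245 tags (2.16) and 251 tags (1.66), a log2 ratio of -0.38 (-0.64 to -0.12), and Cebpd, a C/EBP gene induced at the start of adipogenesis, 224 tags (2.19) and 217 tags (1.53), a ratio of -0.52 (-0.80 to -0.24). Cebpa, which encodes the C/EBP factor of later adipocytes, was bound in myogenic medium only, with 145 tags (1.59) and a score of 523, as was Nr2f2, which encodes the orphan receptor COUP-TFII, with 135 tags (1.69) and a score of 536. The nearest part of an adipogenic peak lay 7379 bp from Cebpa and 92846 bp from Nr2f2. Among lipid genes, Dgat1, which catalyses the last step of triglyceride synthesis, had 226 tags (3.28) and 182 tags (1.84), a ratio of -0.84 (-1.12 to -0.55). Fasn, fatty acid synthase, had a ratio of -0.57 (-0.87 to -0.27). Lipe, hormone-sensitive lipase, was bound in myogenic medium only (104 tags, score 407), and so was Gpd1, glycerol-3-phosphate dehydrogenase, whose peak of 52 tags and a score of 142 was not among the 18893 strongest.

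Genes that respond to the inducers were mostly bound in both media. Of the genes bound in myogenic medium, 24 of 28 glucocorticoid-induced genes (85.7%), 25 of 28 cAMP-responsive genes (89.3%) and 15 of 18 targets of insulin, thyroid hormone or PPARs (83.3%) were also bound in adipogenic medium, beside 56.3% over all genes. With equal numbers of peaks and assignment by nearest TSS the shares were 88.5%, 88.0% and 86.7%, beside 64.1% over all genes and 92.3% for adipocyte function, and no difference between lists was tested. Their myogenic peaks were also stronger, with median scores of 585, 535 and 446 beside 304 over all genes with a myogenic promoter peak, and the part of peak strength in these shares was not tested. Ddit4, an inhibitor of mTORC1 signalling induced by glucocorticoids, had 335 tags (1.96) over 3705 bp and 179 tags (1.80) over 1553 bp. Its log2 ratio of -0.12 (-0.39 to 0.15) was within counting error of equal density, over peaks of unlike length. Cdkn1a, the p21 inhibitor of cell cycle kinases, had a ratio of -0.61 (-0.90 to -0.32). Junb and Fosl2, AP-1 genes induced by cAMP, had ratios of -0.47 (-0.60 to -0.35) and -0.50 (-0.75 to -0.26), and the Junb pair held 1465 and 849 tags. Klf9, a target of thyroid hormone and glucocorticoids, had 173 tags (1.81) and 236 tags (1.59), a ratio of -0.19 (-0.48 to 0.10). Cry2 and Tsc22d3 were bound in myogenic medium only, with scores of 505 and 269, as was Creb3l1 (370).

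Genes first counted as adipogenic only mostly lost that status. By nearest TSS, 1 gene each of the cAMP, insulin, CoREST, Notch and AP-1 lists had an adipogenic promoter peak only, namely Ptgs2, Irs2, Snai1, Dll4 and Ccn2. A myogenic peak covered the TSS of each of them, and each adipogenic peak overlapped a myogenic one. The Irs2 peak, at the gene of an insulin receptor substrate, was strong, with 379 tags (1.67) and a score of 981, and that of Snai1, which encodes a repressor that recruits Lsd1, had 329 tags (2.33) and a score of 1297. The count of adipogenic-only genes therefore rested on peak centres at these genes. Irs1, Pde3b, Kdm1b and Mafg were the converse, since they counted as myogenic only while an adipogenic peak covered their TSS, with paired log2 ratios of -0.46 to -0.75.

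Among the 31 genes of Lsd1, its complex and its recruiters, 17 were bound in both media and 9 in myogenic medium only. The share also bound in adipogenic medium was 65.4% (46.2 to 80.6%), an interval that included the 56.3% over all genes. Kdm1a itself had a myogenic promoter peak of 123 tags (1.28) with a score of 310, and no part of an adipogenic peak lay within 132610 bp of its TSS. Rcor1, which encodes the CoREST scaffold, had 152 tags (1.57) and a score of 541 in myogenic medium only, and the nearest adipogenic peak lay 17571 bp away. Gse1, which encodes a CoREST-associated protein, had 562 tags (2.13) and 638 tags (1.93), a log2 ratio of -0.14 (-0.31 to 0.03), while Rcor2, a paralogue of Rcor1, had 282 tags (2.26) and 238 tags (1.4), a ratio of -0.69 (-0.95 to -0.44). Peaks were thus found in both media at Rcor2 and in myogenic medium alone at Rcor1. Kdm1b, the other flavin-dependent H3K4 demethylase gene, had 138 tags (2.20) and 120 tags (1.30), a ratio of -0.75 (-1.12 to -0.39).

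Of 51 Notch and Wnt genes 29 were bound in both media and 12 in myogenic medium only, of 38 AP-1, Tead and Runx genes 28 and 6, and of 35 cell cycle genes 20 and 7, where over all genes 27.0% were bound in both media and 20.9% in myogenic medium only. The shares also bound in adipogenic medium were 70.7% (55.5 to 82.4%), 82.4% (66.5 to 91.7%) and 74.1% (55.3 to 86.8%). The first and last intervals included the 56.3% over all genes. Median myogenic scores were 527, 686 and 433, beside 304 over all genes with a myogenic promoter peak, and the part of peak strength was not tested. The Notch ligand gene Jag1 had 455 tags (2.35) and 415 tags (1.67), a log2 ratio of -0.50 (-0.69 to -0.30), and Lfng, which encodes a glycosyltransferase of Notch, a ratio of -0.56 (-0.76 to -0.36). Dll1, another Notch ligand gene, was bound in myogenic medium only (128 tags, score 527), as were Tcf7l2, a Wnt effector (score 408), and Cbfb, which encodes the partner of Runx factors (128 tags, score 359). Myc had 607 tags (2.30) and 743 tags (2.08), a ratio of -0.14 (-0.30 to 0.01), within counting error of equal density. Its interval lay above the median of -0.44 over promoter pairs. Cdk2 was bound in myogenic medium only (90 tags, score 329). Ccnd3 counted as myogenic only by nearest TSS, with an adipogenic peak whose nearest part lay 1619 bp from its TSS.

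Ribosomal protein genes had the lowest share of promoters bound in both media among the 12 lists. Of 77 genes, 24 were bound in both media, 46 in myogenic medium only and 2 in adipogenic medium only, so that 34.3% of those bound in myogenic medium were also bound in adipogenic medium, beside 56.3% over all genes. The shares of the other lists ran from 50% to 89.3%. Their median myogenic score was 249, beside 304 over all genes. With equal numbers of peaks and assignment by nearest TSS, 33 of 51 were bound in myogenic medium only. Among genes bound in both media, Rpl7 had a log2 ratio of -0.46 (-0.85 to -0.09) and Rpl37 one of -0.52 (-0.86 to -0.19). Rps26 and Rpl11 were bound in adipogenic medium only, and the Rps26 peak had 85 tags (1.26) and a score of 146. Ribosomal protein genes have many processed pseudogenes, and the methods state unique mapping for the intensity profiles only, so counts at these genes are uncertain.

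Private distal peaks were also counted by the gene whose TSS lay nearest. Over all genes, 32.4% were nearest to a private distal myogenic peak and 8.79% to a private distal adipogenic peak. The shares were 63.6% and 45.5% for glucocorticoid-induced genes, 72.4% and 34.5% for cAMP-responsive genes, 77.4% and 32.3% for myogenic transcription factor genes, and 27.3% and 6.49% for ribosomal protein genes. The lists not named here ran from 37.1% and 11.4% for cell cycle genes to 76.3% and 34.2% for AP-1, Tead and Runx genes. Shares above those over all genes were thus common to every list but the ribosomal protein genes. Assignment to the nearest TSS took no account of how much DNA lay nearest to each gene. The part of that span in these shares was not tested. Genes named here were chosen after their values were seen. Ddit4 had 3 private distal adipogenic peaks, the strongest 21.0 kb upstream with 209 tags and a score of 275, and Pde4b, a cAMP phosphodiesterase gene, had 10, the strongest 10.5 kb downstream of a TSS with 187 tags and a score of 297. Plin2, which encodes a coat protein of lipid droplets, had one 16.3 kb upstream with 155 tags and a score of 249.9, and Pparg, the master regulator of fat cells, one 41.3 kb downstream with a density of 1.09 and a score of 128. Mef2d had one 3.59 kb upstream with 154 tags and a score of 246. Private distal myogenic peaks lay nearest to these genes too, 5 at Pde4b, 4 at Plin2, 2 at Ddit4, 1 at Pparg and 0 at Mef2d. The strongest of them at Plin2 lay 14.0 kb upstream of the TSS with 78 tags and a score of 192. This myogenic peak (chr4:86683351-86684698) lay next to the private adipogenic peak of Plin2 (chr4:86685404-86687350) without overlapping it. For these 5 genes the density over the adipogenic peak itself had to be lower in myogenic medium by at least 0.39 to 0.70 on the log2 scale to go uncalled.

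The sequence around the summits differed between classes. The bases within 100 of each summit were searched on both strands for 21 motifs, and windows 5000 bp downstream of the same summits gave the background. At distal peaks, the MyoD E-box CAGCTG was present in 27.1% of shared myogenic peaks (interval 26.2 to 28.0%), in 18.9% of private myogenic peaks (18.4 to 19.5%), in 28.1% of shared adipogenic peaks and in 20.1% of private adipogenic peaks (18.8 to 21.5%), beside 9.50 to 9.98% downstream. Among the 3358 strongest private distal myogenic peaks, as many as the adipogenic list holds, the share was 22.2% (20.9 to 23.7%). These peaks scored at least 168, while the private distal adipogenic peaks had a median score of 74.0. The 2 sets are thus equal in number but not in strength. The AP-1 motif TGANTCA was present in 21.3% and 15.5% of shared and private myogenic and in 21.5% and 15.7% of adipogenic distal peaks, beside 6.03 to 6.25% downstream. Among the 3358 strongest private distal myogenic peaks it was 20.9% (19.6 to 22.3%), beside 15.7% (14.5 to 16.9%) of the private adipogenic ones with their lower scores. Windows of the same length at all TSSs held these motifs in 12.9% and 4.37% of cases.

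The C/EBP motif TTGCNNAA stood apart at private adipogenic peaks. It was present in 12.1% of private distal adipogenic peaks (interval 11.0 to 13.2%), in 8.69% of shared adipogenic peaks (8.12 to 9.30%), in 8.10% of shared myogenic peaks and in 7.74% of private myogenic peaks (7.40 to 8.11%), beside 7.26 to 8.27% downstream and 5.54% at all TSSs. Among the 3358 strongest private distal myogenic peaks, as many as the adipogenic list holds but with higher scores, it was present in 6.16% (5.40 to 7.03%). C/EBP factors drive the onset of adipogenesis and rise with dexamethasone and cAMP. The share was 13.2% in private distal adipogenic peaks that overlapped an LSD1(OE) peak and 11.2% in those that did not, a split made after seeing the data. The spaced glucocorticoid receptor motif ACANNNTGT was present in 6.88% of private distal adipogenic peaks and in 6.55% of their downstream windows. The full receptor motif, which contains the spaced one, was present in 0.715% of private distal adipogenic peaks (0.481 to 1.06%), beside 0.268% downstream. That interval included the 0.587% of shared myogenic and the 0.544% of shared adipogenic distal peaks. It lay above the share in private distal myogenic peaks, 0.347% (0.277 to 0.434%). Among the 3358 strongest private distal myogenic peaks the share was 0.447% (0.271 to 0.736%), an interval that overlapped the adipogenic one.

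Shown here are the summits of the 3 strongest private distal adipogenic peaks with a C/EBP match in the bases shown, chosen after their values were seen, with the match in capitals (mm10, plus strand). The Psap peak, at chr10:60252762-60252882 between genes, had 202 tags (density 1.35) and a score of 342, the Gmds peak, at chr13:32418763-32418883, 138 tags (1.35) and a score of 262, and the Ksr1 peak, in an intron at chr11:79081269-79081389, 129 tags (1.39) and a score of 257.
Psap distal, adipogenic private: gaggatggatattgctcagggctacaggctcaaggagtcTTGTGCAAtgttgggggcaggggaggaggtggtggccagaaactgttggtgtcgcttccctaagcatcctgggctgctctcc
Gmds distal, adipogenic private: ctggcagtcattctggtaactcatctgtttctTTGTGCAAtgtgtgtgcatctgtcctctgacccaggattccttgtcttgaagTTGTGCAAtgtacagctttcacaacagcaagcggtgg
Ksr1 distal, adipogenic private: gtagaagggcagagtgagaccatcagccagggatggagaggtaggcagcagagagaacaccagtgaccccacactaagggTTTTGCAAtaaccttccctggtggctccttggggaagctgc

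Private promoters differed in base composition. The GC box GGGCGG, bound by SP and KLF factors, was present in 48.8% of shared (interval 47.6 to 50.1%) and 35.7% of private myogenic promoter peaks (34.5 to 36.9%), and in 46.3% of shared and 19.5% of private adipogenic promoter peaks (15.6 to 24.0%), beside 38.7% of windows at all TSSs. Among the 334 strongest private myogenic promoter peaks it was present in 54.2% (48.8 to 59.5%). These peaks scored at least 489.5, while the private adipogenic promoter peaks had a median score of 71.3. The ETS motif CCGGAAG was present in 8.87% of private myogenic and 2.69% of private adipogenic promoter peaks. The median GC content of the windows was 60.2% and 54.0%, and their median ratio of observed to expected CpG was 0.66 and 0.36. Private adipogenic promoter peaks thus lay in DNA with fewer CpGs than private myogenic ones.

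**Figure D5:**
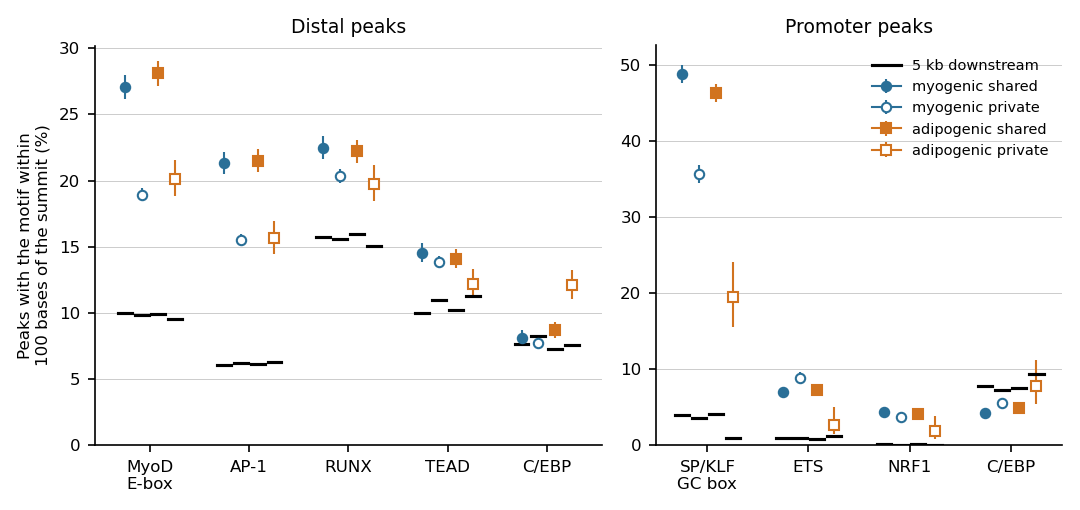
Percent of distal peaks (left) and promoter peaks (right) with a motif within 100 bases of the summit, for shared (filled) and private (open) peaks of each medium, with 95% Wilson intervals. Short black lines give the same windows moved 5 kb downstream; C/EBP lies at 12.1% in private distal adipogenic peaks and between 7.74% and 8.69% in the other distal classes.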

How the data were processed

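The authors mapped 50 bp reads to mm10 (Bowtie2, per the submitters' processing notes) and called peaks of each ChIP library against its own input with MACS (1.4.2 in the file headers) at a p cut-off of 1e-05 and, per their methods, an FDR under 1%, which every deposited peak met. Per the file headers, each peak has a count of filtered ChIP tags, a score (−log10 of the p-value, multiplied by 10, with ChIP tags scaled up to the input by 1.90 and 1.28), a fold enrichment and an FDR in percent. The deposited fold enrichment ratio was not used. The deposited lists also exist as BED files with the same peaks, not used here.

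Software was SciPy 1.17.1, pandas 2.3.3 and NumPy 2.4.6 under Python 3.11.15. TSSs (31647 of 26180 genes) and sequences came from RefSeq GRCm38.p6, whose chromosomes are those of mm10. Local background was solved from tags, length and score with the Poisson model of MACS, and its median was 1.01 times the genome background in both libraries. Single ratios have exact conditional binomial intervals, densities exact Poisson intervals and shares Wilson intervals, at 95%. No test between media was run, because each has 1 library. The steps were tested on simulated data.

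Members, gene lists and motifs were chosen with earlier results of these data known. Named genes were, per list, the 2 highest-scoring in each class, the genes of the 5 strongest private promoter and 3 strongest private distal peaks of each medium, the 5 highest and 5 lowest ratios of promoter pairs with at least 100 tags in both libraries, and Kdm1a; others are marked in the text. Sequences with untranslated exon bases were left out. Alternatives covered the definition of shared, peak thresholds, promoter windows, annotation, scaling and motif windows. Some items that the rule selects are not reported here.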

Additional observations from a re-analysis of the deposited data

How the results depend on the processing

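No paired analysis was possible because each condition had 1 library and no test between media was run; for the same reason no replicate could be left out. In every setting tried promoter peaks made up more of the private myogenic than of the private adipogenic peaks, but over all peaks the order of the media turned: promoter peaks made up 28.7% of myogenic and 35.5% of adipogenic peaks, yet 45.2% and 35.5% with equal numbers and 39.4% and 37.4% with unscaled tags, and the median length turned from 945 against 1138 bp to 1406 against 1138 bp and 1236 against 1220 bp. The median density was higher in myogenic medium in all settings tried. The share of myogenic peaks that were shared (35.4%) was 28.3% with a reciprocal overlap of 50%, 32.1% with the summit inside the other peak, 38.9% with gaps of up to 500 bp, 62.0% with equal numbers, 34.2% at an FDR of at most 0.1%, 37.4% at a score of at least 100 and 47.8% with scores recomputed without scaling tags up; in the same order the adipogenic share (80.5%) was 65.1%, 75.0%, 83.0%, 64.3%, 87.4%, 85.4% and 76.9%. The share of promoter peaks with windows of 1000 bp, 5000 bp and with all RefSeq transcripts was 24.6%, 37.0% and 34.2% for all myogenic peaks (28.7%), 17.5%, 30.8% and 27.1% for private myogenic peaks (21.9%), 31.5%, 43.2% and 41.3% for all adipogenic peaks (35.5%), and 5.82%, 18.8% and 15.0% for private adipogenic peaks (9.05%). With equal numbers, the FDR limit, the score limit and unscaled tags it was 45.2%, 40.8%, 40.0% and 39.4% for all myogenic and 40.8%, 38.1%, 36.6% and 34.3% for private myogenic peaks; with the last 3 it was 41.8%, 40.8% and 37.4% for all adipogenic peaks, and with equal numbers and unscaled tags 13.4% and 10.8% for private adipogenic peaks. Among private myogenic peaks over 5000 bp from an adipogenic peak, an alternative chosen after seeing the data, it was 23.7%. The median myogenic length (945 bp) was 1406, 1282, 1256 and 1236 bp with equal numbers, the FDR limit, the score limit and unscaled tags, and the median density (1.22) was 1.51, 1.43, 1.42 and 1.41, and 1.10 per 1000000 of all mapped tags. The adipogenic length (1138 bp) was 1500, 1426 and 1220 bp with the last 3, and the density (1.14) was 1.30, 1.27 and 1.18, and 1.03 with all mapped tags. The median log2 ratio of pairs (-0.33) was -0.33 with the reciprocal overlap and with all mapped tags, -0.31 with like lengths, -0.40 with equal numbers, -0.44 at promoter and -0.24 at distal pairs, and -0.55 for tags above the local background. Of 28047 private myogenic peaks, 24710 would pass at an unchanged density and 10221 with the density lowered. Lowering it by the ratio of promoter or distal pairs, chosen after seeing the data, left 11424. With equal numbers 7176 would pass at an unchanged density, which was every private myogenic peak of that setting. Genes bound in both media (5623) numbered 3371 at the FDR limit, myogenic-only genes (4976) 2884 with equal numbers, and adipogenic-only genes (463) 942 with equal numbers, 238 at the FDR limit, 244 with every gene within 2000 bp of the centre and 236 with any part of the peak. The C/EBP share of private adipogenic peaks (11.7%) was 5.96% and 21.2% in narrower and wider windows, 10.4% with equal numbers and 7.78% at promoters; the E-box share of shared myogenic peaks (21.8%) was 12.1% and 35.0% in those windows, 18.9% around centres, 27.1% at distal peaks and 14.4% at promoters. Of the other values recomputed, 131 moved by more than their counting interval and 19 did not. Apart from settings that change the definition itself, the cause of these shifts was not tested. With 1 library in each medium, depth and antibody enrichment cannot be told apart from the medium.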

Other observations

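Peaks were unevenly shared along the genome. On the X chromosome, 14.3% of 433 myogenic peaks (interval 11.3 to 17.9%) overlapped an adipogenic peak, and 65.2% of 89 adipogenic peaks (54.8 to 74.3%) overlapped a myogenic one. On the autosomes these shares ran from 27.7% to 41.6% and from 75.4% to 84.0%. Myogenic peaks outnumbered adipogenic peaks 4.87-fold on the X chromosome. The median myogenic score on the X chromosome was 78.8, and on the autosomes it ran from 109 to 138. Among autosomes, the ratio of myogenic to adipogenic peaks was highest on chromosomes 7 (2.98) and 9 (2.96), and lowest on chromosome 15 (1.89), which held the most peaks of both lists.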
